A study of Homo sapiens with 12 samples.

Results

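BEAS-2B is a line of human bronchial epithelial cells, made permanent with viral genes, that grows as a layer resembling the basal cells of the airway. In the comparison described here, 3 libraries of BEAS-2B cells given dexamethasone (30 nM for 4 h) were set against 3 libraries of cells labelled as having no treatment, and the members are all genes that passed a low-count filter. These are 6 of the 12 labelled libraries of the series. The other 6 came from cells given TGF-β1 (40 pM for 24 h) and then dexamethasone for a further 4 h, and from cells given TGF-β1 alone, and they entered the filter, the estimates of spread and of the replicate block, and the test of whether the effect differed. Before any treatment all cells, controls included, spent 24 h in medium without serum or steroid, so both compared groups were starved. Whether the control wells received the vehicle of dexamethasone is not given in the sources used here, and the labels call the 3 libraries of each group biological triplicates of 1 cell line. The libraries were poly(A)-selected, and their replicate numbers run from 1 to 3 in every group. The sources used here do not say whether a number marks a day or a passage.

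Dexamethasone is a synthetic glucocorticoid. It enters the cell, binds the glucocorticoid receptor, which is held ready by heat-shock chaperones in the cytoplasm, and the receptor then moves to the nucleus and binds DNA as a pair at glucocorticoid response elements near genes that it switches on. The receptor also lowers transcription that depends on NF-κB and AP-1, the factors that drive cytokine genes, and inhaled glucocorticoids are a standard treatment of asthma, with the airway epithelium among the tissues they act on.

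The libraries held 6505233, 6379193 and 19727235 counts in dexamethasone replicates 1, 2 and 3, against 6057590, 5861591 and 18989865 in control replicates 1, 2 and 3. Replicate 3 was the deepest in both groups. A first principal component of the 6 libraries carried 58.1% of variance and separated dexamethasone from control, another carried 20.5% and separated replicate 2, and the next carried 10.4% and separated replicates 1 and 3. The growth protocol in the labels names A549 cells, whereas the other label fields name BEAS-2B, so markers were checked. All 10 listed markers of airway basal cells passed the filter and summed to 2640 to 3940 reads per 1000000 in dexamethasone libraries and 1930 to 2790 in control libraries. ITGB4, whose levels are given below, made up a large part of both sums. Of 16 markers of alveolar and A549 cells 6 passed the filter, and the 16 summed to 53.5 to 89.7 reads per 1000000 with dexamethasone and 57.0 to 87.5 in control. Most of that sum came from the 6 that passed, LAMP3, ABCA3, AKR1B10, AKR1C2, ALDH3A1 and CPS1. Together these had 50.56 to 83.44 CPM with dexamethasone and 51.25 to 78.23 CPM in control. Of the members under the filter, ALDH1A1, a dehydrogenase abundant in A549 cells, had 1 read over the dexamethasone libraries and 3 over the control libraries. The 10 fibroblast markers, of which 3 passed the filter, summed to 586 to 817 reads per 1000000 with dexamethasone and 519 to 697 in control. The 10 secretory markers summed to 1.77 to 6.58 reads per 1000000 with dexamethasone and 2.69 to 16.0 in control. The 11 leukocyte markers summed to 6.94 to 7.84 with dexamethasone and 7.0 to 9.55 in control. SCGB1A1 of secretory cells had 0 reads with dexamethasone and 1 in control, and PTPRC of leukocytes had 3 with dexamethasone and 3 in control.

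Within 4 h, dexamethasone raised 1461 genes (10.8% of the 13469 tested) and lowered 1535 (11.4%) at an adjusted p under 0.05 in edgeR's quasi-likelihood test with the replicate number as a block, which makes 22.2% changed in either direction. The rises reached further than the falls. At least 2-fold changes numbered 401 upward (2.98% of genes tested) and 289 downward (2.15%), and changes of at least 4 on the log2 scale numbered 23 upward and 3 downward. The median log2 fold change over all genes tested was 0.006, with the 10th percentile at -0.40 and the 90th at 0.35. Of the calls, 48.8% were rises, against 35.6% when libraries were scaled by their totals alone, a scaling that moved the median of all genes to -0.048. Without the block the test called 746 rises and 660 falls. Of all tested genes, 13.2% had all 3 dexamethasone libraries above all 3 control libraries in CPM (counts per 1000000 on TMM-scaled library sizes, the level used throughout), and 12.5% had them all below.

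The genes that rose at least 2-fold had a lower median level in untreated cells than genes not past the test (26.4 CPM). So did the genes that fell at least 2-fold. Choosing genes by a large rise favours low control levels, so this is a description. Their median level was 32.6 CPM with dexamethasone and 7.94 CPM in control cells, and together they took 3.99% of all CPM with dexamethasone and 1.18% in control cells. In 76 of them the control mean was under 1 CPM. The genes that fell at least 2-fold had a median of 4.73 CPM with dexamethasone and 12.9 CPM in control cells. The test had more calls among abundant genes, at 12.1% of genes under 1 CPM and 33.9% of those at 1000 CPM and over, and the median standard error of the log2 fold change was 0.529 in the first class and 0.054 in the second. A rise in these bulk libraries cannot be assigned to more RNA in every cell rather than more cells with RNA of that gene in a culture, since these cannot be told apart. The plot of fold change against level shows this spread of response.

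**Figure D1:**
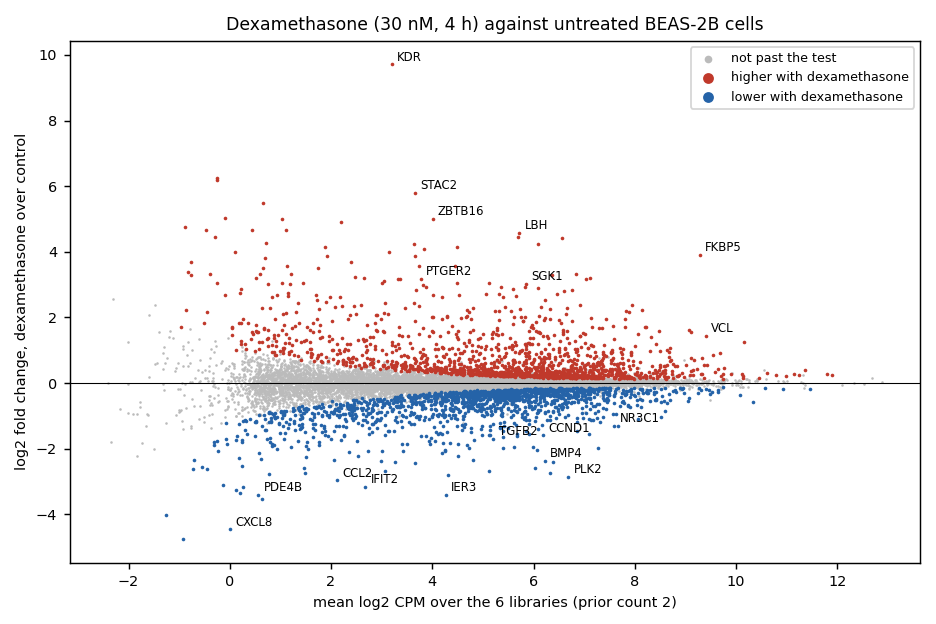
Log2 fold change of dexamethasone over control (vertical axis) against the mean log2 CPM of the 6 libraries (horizontal axis, prior count 2), 1 point a gene. Red points are the 1461 genes that rose, blue the 1535 that fell and grey those not past the test, and KDR stands alone at 9.71.

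The largest rises included genes that were nearly silent in untreated cells. KDR, the main VEGF receptor of endothelial cells, at chr4:55078481-55125595 (hg38), had 163, 336 and 184 CPM in the dexamethasone libraries and 0, 0.621 and 0.193 CPM in the control libraries. STAC2, an adaptor protein known from voltage-gated calcium channels, had 98.9, 109 and 106 CPM with dexamethasone and 1.36, 0.621 and 2.51 CPM in control. The groups were far apart for both genes (9.71 ± 0.17 SE for KDR and 5.80 ± 0.33 for STAC2, on the log2 scale). The size for KDR rests on few control reads, where an SE taken from the test's F can be too small. FRZB, a secreted antagonist of Wnt, stood at 10.2, 11.3 and 9.34 CPM with dexamethasone against 0.455, 0 and 0.338 CPM in control (log2 fold change 5.00, SE 0.36, adjusted p = 6.68e-10). Among genes of higher level, LBH, a transcriptional cofactor of limb and heart development, had 280.5, 209 and 273 CPM with dexamethasone and 12.3, 9.78 and 10.2 CPM in control (log2 fold change 4.58, SE 0.08, adjusted p = 3.01e-19). The rule for the largest changes took only genes whose groups did not overlap, so separation of the libraries was set by that choice. Other rises among the 12 largest included those of ZBTB16, a zinc-finger repressor (5.01 ± 0.17 SE), TFCP2L1, a grainyhead-like transcription factor (4.44 ± 0.16 SE), PDK4, CDKN1C and KLF15, of SLC16A12, a monocarboxylate and creatine transporter (4.66 ± 0.38 SE), and of ABTB3 (4.14 ± 0.11 SE). The 9 other endothelial markers listed with KDR, PECAM1, VWF and TEK among them, summed to 3.04 to 6.58 reads per 1000000 with dexamethasone and 4.79 to 6.48 in control. CDH5, the cadherin of endothelial junctions, fell (-1.55 ± 0.40 SE, adjusted p = 0.0059), a call lost without the block and without dexamethasone replicate 3.

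The largest falls included kinases, developmental factors and cytokines. PLK2, a polo-like kinase of the stress and growth response, had 39.0, 42.8 and 33.3 CPM with dexamethasone and 281, 304 and 249 CPM in control (log2 fold change -2.86, SE 0.05, adjusted p = 3.01e-19). SOX9, a transcription factor of airway and cartilage progenitors, had 17.6, 8.78 and 15.3 CPM with dexamethasone and 93.4, 90.02 and 88.1 CPM in control (log2 fold change -2.69, SE 0.18, adjusted p = 5.29e-06). ENC1, an actin-binding kelch protein, had 34.7, 33.5 and 25.8 CPM with dexamethasone and 224, 236 and 166 CPM in control (log2 fold change -2.75, SE 0.13, adjusted p = 3.91e-07). For each of these genes every dexamethasone library was below every control library, as the rule for the largest changes required. PRAG1, a pseudokinase, had 29.3, 27.2 and 23.5 CPM with dexamethasone and 165, 187 and 132 CPM in control (log2 fold change -2.60, SE 0.10, adjusted p = 1.86e-11). AMIGO2, an adhesion and survival protein that other cell types raise in response to glucocorticoid, had 9.31, 7.14 and 6.51 CPM with dexamethasone and 53.8, 58.0 and 41.7 CPM in control (log2 fold change -2.79, SE 0.33, adjusted p = 0.00109). TNFRSF11B, the decoy receptor osteoprotegerin, had 0.296, 1.49 and 1.20 CPM with dexamethasone and 5.16, 15.4 and 4.97 CPM in control (log2 fold change -2.75, SE 0.43, adjusted p = 0.000662). IER3, IFIT2, IFIT3, CCL2, LIF and CXCL1 complete the 12 largest falls and are given below. The library kit does not mark strand and the strand setting of the counting is not given, so reads of genes that overlap others cannot be told apart: AMIGO2 lies over PCED1B, ENC1 over another gene, IFIT2 and IFIT3 over LIPA, IL6 over IL6-AS1, LIF over LIF-AS1 and LIF-AS2, SLC16A12 over SLC16A12-AS1, KLF9 over KLF9-DT, IER3 over IER3-AS1 and SCNN1A over LTBR.

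**Figure D2:**
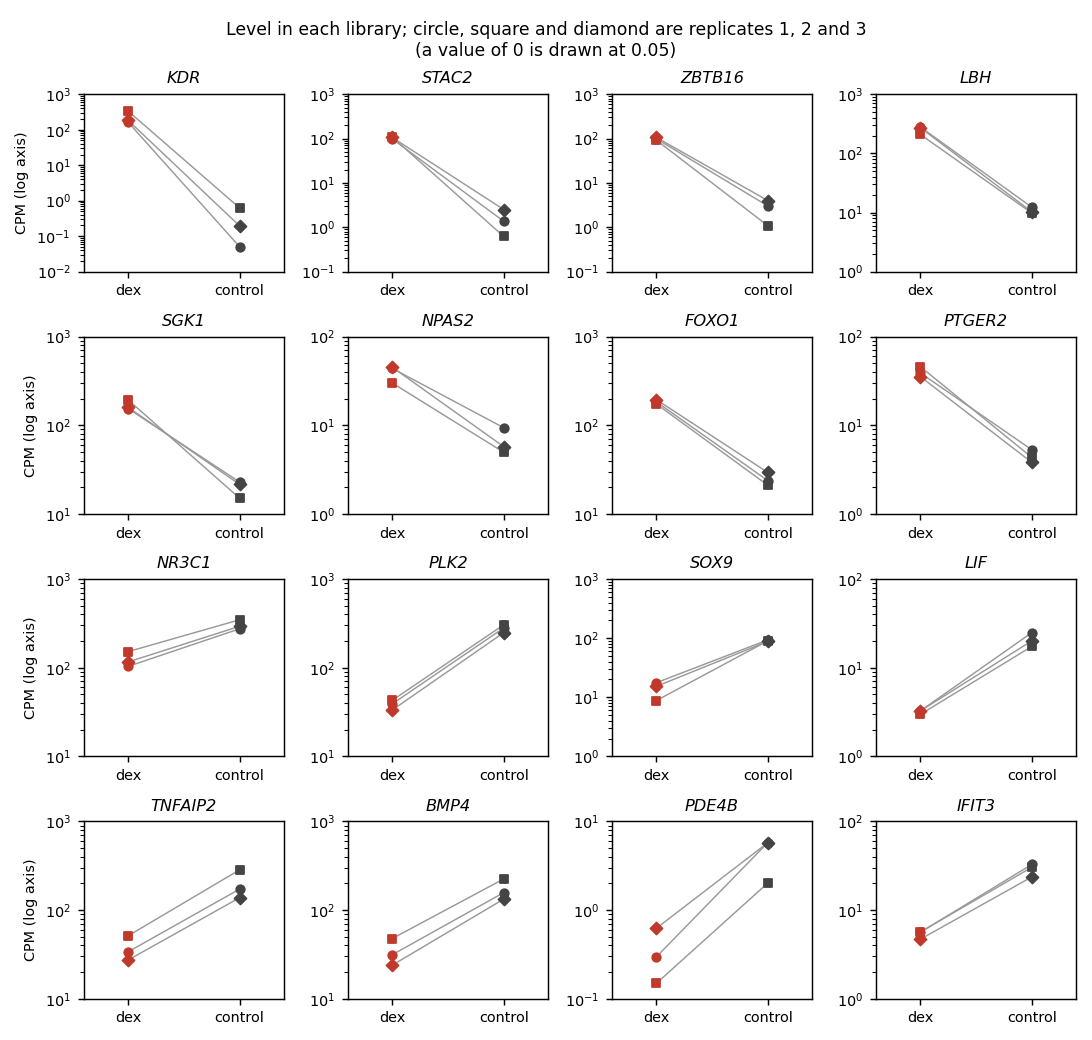
CPM on a log axis in the 3 dexamethasone libraries (red, left) and the 3 control libraries (dark, right) of 16 genes, with libraries of the same replicate number joined and a value of 0 drawn at 0.05. In all 16 genes the 2 groups do not overlap, and all 3 lines slope the same way. The genes were chosen for display, some of them by a rule that required no overlap. Over all genes tested, 13.2% had the dexamethasone libraries all above control and 12.5% all below.

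Dexamethasone lowered the messenger of its own receptor. NR3C1, which encodes the glucocorticoid receptor (chr5:143277931-143435512), had 104, 152 and 116 CPM with dexamethasone and 275, 348 and 293 CPM in control (log2 fold change -1.31, SE 0.05, adjusted p = 4.59e-14), with every dexamethasone library below every control library. Of 18 tested genes of the receptor, its chaperones and the enzymes that make or destroy its hormone, 2 rose and 5 fell, with a median of -0.04. Rises were about as frequent as over all genes (10.8%). FKBP5, the co-chaperone that lowers the receptor's affinity for hormone, had 2241, 2484 and 2505 CPM with dexamethasone and 158, 145 and 179.6 CPM in control (3.90 ± 0.10 SE). DNAJB1, a co-chaperone of HSP70, also rose (248 ± 11.2 CPM with dexamethasone, 167 ± 2.56 in control, SD, n = 3 each). HSPA1A, HSPA1B, DNAJA1 and BAG1 fell by less (-0.52, -0.37, -0.37 and -0.32 on the log2 scale), and HSPA1A and HSPA1B are near-identical copies whose reads the counting could split. The HSP90 genes HSP90AA1 (-0.10) and HSP90AB1 (-0.03) did not pass. Without the block 3 of these 5 falls were called. The receptor's mineralocorticoid relative NR3C2 and the enzyme HSD11B2 were under the filter, with 25 and 28 reads in dexamethasone libraries and 22 and 25 in control libraries.

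Of 23 coregulators that the receptor recruits, 5 rose, 1 fell and 17 did not pass, with a median of 0, and their called share of 26.1% lay near the 22.2% of all genes. NRIP1, a corepressor of nuclear receptors, had 61.5, 68.6 and 94.5 CPM with dexamethasone and 34.6, 34.1 and 46.4 CPM in control (log2 fold change 0.97, SE 0.07, adjusted p = 1.01e-09). NCOA3, a coactivator, rose as well (0.39 ± 0.06 SE), and HDAC2, a histone deacetylase that the receptor is known to use on inflammatory genes, fell (129 ± 5.76 CPM with dexamethasone, 154 ± 4.88 in control, log2 fold change -0.26, SE 0.05, adjusted p = 0.000669). The count of rises was 3 without the block, and 3 without dexamethasone replicate 1, dexamethasone replicate 2 or control replicate 1. The count of falls was 2 without dexamethasone replicate 1 and 5 when libraries were scaled by their totals alone.

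Nearly all genes known from other cells as direct products of glucocorticoid action were raised. Of 38 tested members of that list, 34 rose and 2 fell, with a median log2 fold change of 2.22, and the list was drawn up with earlier results of these data known. MAOA, the oxidase that breaks down serotonin and noradrenaline, had 76.1, 72.0 and 70.5 CPM with dexamethasone and 6.06, 7.92 and 5.36 CPM in control (log2 fold change 3.56, SE 0.12, adjusted p = 1.06e-14). TIPARP, a mono-ADP-ribosyltransferase, had 231, 295 and 251 CPM with dexamethasone and 29.4, 48.7 and 33.6 CPM in control (log2 fold change 2.82, SE 0.08, adjusted p = 2.91e-14). RGCC, a regulator of the cell cycle and complement response, had 18.3, 22.6 and 14.4 CPM with dexamethasone and 2.12, 2.17 and 1.59 CPM in control (log2 fold change 3.20, SE 0.18, adjusted p = 1.4e-11). CEBPB, a transcription factor of the acute phase, stood at 537, 446 and 475 CPM with dexamethasone and 120.2, 104 and 97.4 CPM in control (log2 fold change 2.19, SE 0.09, adjusted p = 6.63e-09). All dexamethasone libraries of these genes lay above all control libraries. The members not past the test were ANGPTL4 (0.56) and DDIT4 (0.30), and the members that fell were AMIGO2, given above, and ANXA1 (log2 fold change -0.29, SE 0.07, adjusted p = 0.0088), a phospholipase inhibitor and anti-inflammatory mediator, whose call was lost without the block.

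Promoter sequence was read for genes with a match to a pattern of the glucocorticoid response element that leaves some bases free. It is printed to show what such a match looks like in genes that responded. The letters searched were GNACA and TGTNC (N is any base) with 3 bases of any kind between them, a pattern that reads the same on both strands, within 250 bases before each start in the RefSeq table of GRCh38.p14, which held 10659 of the 13469 tested genes. The match occurred in 0.33% of all 27305 promoters and in 0.159% of those of tested genes. These were 17 tested genes, of which 5 rose, 3 fell and 9 did not pass. It was in none of the 23 panel and largest-change genes with a promoter in the table, KDR, PDK4 and IL6 among them, which says only that these letters are not in those windows. The capitals mark the match in TXNIP (chr1:145996580-145996769, minus strand) and MAP3K6 (chr1:27366962-27367131, minus strand), printed 5′ to 3′ up to the last base before the start.
TXNIP: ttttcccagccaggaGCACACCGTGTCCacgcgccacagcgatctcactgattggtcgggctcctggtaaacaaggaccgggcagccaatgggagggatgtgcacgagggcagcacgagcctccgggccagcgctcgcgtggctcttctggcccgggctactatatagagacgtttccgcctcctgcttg
MAP3K6: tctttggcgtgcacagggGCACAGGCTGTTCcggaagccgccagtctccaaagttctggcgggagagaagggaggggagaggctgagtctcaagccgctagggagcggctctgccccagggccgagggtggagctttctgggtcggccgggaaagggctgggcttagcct
The match began at base -175 relative to the start in TXNIP and at base -152 in MAP3K6. TXNIP, an arrestin-like protein that limits glucose uptake, had 205, 199 and 190.3 CPM with dexamethasone and 78.4, 64.3 and 78.2 CPM in control (log2 fold change 1.43, SE 0.13, adjusted p = 4.46e-05). MAP3K6, a kinase of the stress-activated cascade, had 147, 138 and 138 CPM with dexamethasone and 75.2, 64.0 and 67.7 CPM in control (log2 fold change 1.03, SE 0.06, adjusted p = 1.73e-11). The other genes with the match that rose were FOXN3 and EEF2K, at 1.07 and 0.80 on the log2 scale, and CMKLR2, which had 34 reads with dexamethasone and 3 in control, and those that fell were EXOC6, ADAM8 and EVA1A, at -0.50, -0.76 and -1.21.

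Most inflammatory mediators that passed the filter fell. Of 28 tested cytokines, chemokines and effectors, 16 fell, 4 rose and 8 did not pass, with a median of -0.87. CSF2, the granulocyte-macrophage growth factor, had 1 read over the 3 dexamethasone libraries and 36 over the control libraries, so control was higher by a ratio of 38 (95% exact interval 6.41 to 1540, counting error only). CXCL8, the neutrophil chemokine, had 0, 0.297 and 0.0957 CPM with dexamethasone and 3.33, 4.81 and 1.93 CPM in control, from 4 reads with dexamethasone and 93 in control. LIF, a cytokine of the IL-6 family, had 3.25, 2.98 and 3.25 CPM with dexamethasone and 24.9, 17.4 and 20.1 CPM in control (log2 fold change -2.69, SE 0.18, adjusted p = 9.16e-09). CXCL1, another neutrophil chemokine, had 1.33, 0.744 and 0.909 CPM with dexamethasone and 8.49, 6.21 and 4.78 CPM in control (log2 fold change -2.60, SE 0.29, adjusted p = 5.35e-07). CCL2, the monocyte chemokine, had 1.63, 1.93 and 0.957 CPM with dexamethasone and 15.3, 12.4 and 7.49 CPM in control (-2.96 ± 0.25 SE). CX3CL1, a membrane-bound chemokine, had 0.148, 0.297 and 0.431 CPM with dexamethasone and 4.85, 1.397 and 3.33 CPM in control (log2 fold change -3.17, SE 0.44, adjusted p = 1.07e-05). For all of these the groups did not overlap, which the rule for the largest falls required of LIF, CXCL1 and CCL2.

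IL1B, the cytokine of the inflammasome, had 1.03, 0.744 and 0.814 CPM with dexamethasone and 3.03, 3.10 and 3.77 CPM in control, and IL11, a cytokine that fibroblasts respond to, had 1.18, 1.49 and 1.44 CPM with dexamethasone and 4.85, 6.83 and 4.15 CPM in control. Both fell, by 2.00 ± 0.36 and 1.79 ± 0.23 SE on the log2 scale. PLAU, the urokinase that activates plasminogen, had 96.4, 56.2 and 84.4 CPM with dexamethasone and 371, 267 and 288 CPM in control (log2 fold change -1.98, SE 0.14, adjusted p = 1.52e-05). ICAM1, the leukocyte adhesion molecule, fell (-0.75 ± 0.13 SE), a call lost without the block, and its libraries overlapped between groups. The members that rose were not chemokines: CSF3, the granulocyte growth factor (2.76), SAA1, an acute-phase protein, EDN1, the vasoconstrictor endothelin (1.07), and CSF1, the macrophage growth factor (0.21). The groups overlapped for CSF1, whose call was lost without the block and without dexamethasone replicate 1, dexamethasone replicate 2, control replicate 2 or control replicate 3. SAA1 had 18.04, 16.4 and 13.1 CPM with dexamethasone and 5.00, 2.79 and 3.96 CPM in control (log2 fold change 1.94, SE 0.17, adjusted p = 2.01e-08). Without the block, or without dexamethasone replicate 1, 2 of these 4 rises were called. CXCL3, TNF, PTGS2, IL33, TSLP, CCL5 and CXCL10 were under the filter with at most 19 reads over the libraries of either group.

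Regulators of NF-κB moved both ways, and the members that rose included the inhibitors NFKBIA, IRAK3 and TNFAIP3. Of 25 tested, 6 rose and 8 fell, with a median of 0.05. NFKBIA, the inhibitor that keeps NF-κB in the cytoplasm, had 164, 234 and 135 CPM with dexamethasone and 36.8, 51.7 and 26.1 CPM in control (log2 fold change 2.25, SE 0.07, adjusted p = 7.37e-16). IRAK3, a kinase-dead inhibitor of Toll-like receptor signalling, had 42.9, 49.1 and 45 CPM with dexamethasone and 17.1, 14.0 and 15.9 CPM in control (log2 fold change 1.55, SE 0.11, adjusted p = 6.77e-10). BIRC3, a ubiquitin ligase of the TNF receptor complex, rose by 2.83 ± 0.14 SE, and TNFAIP3, the enzyme that removes ubiquitin from that complex, by 1.15 ± 0.15. TNFAIP2, a gene named for its induction by TNF, had 33.9, 51.3 and 27.4 CPM with dexamethasone and 173, 285 and 138 CPM in control (log2 fold change -2.39, SE 0.10, adjusted p = 7.25e-10). IRAK2, an activating kinase of Toll-like receptor signalling, BCL3, a nuclear partner of NF-κB, and the subunit RELB fell by 1.92, 1.75 and 1.12 on the log2 scale. The subunits RELA (0.12), NFKB1 (-0.06) and REL (-0.05) did not pass.

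**Figure D3:**
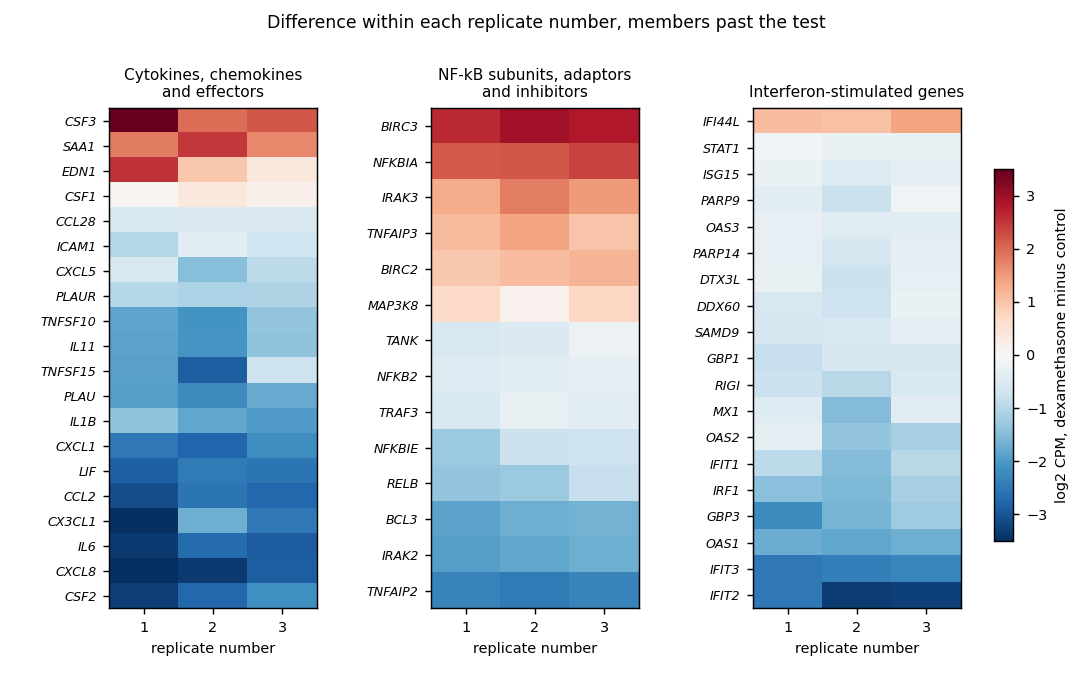
Colour gives the difference in log2 CPM, dexamethasone minus control, within each replicate number (columns 1 to 3) for the called members of 3 lists (rows), from blue (lower with dexamethasone) to red (higher). Every row keeps 1 sign in its 3 columns, as did 2966 of all 2996 called genes, since the test with the block favours such genes. CX3CL1, TNFSF15 and EDN1 differ most between columns.

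Promoters of the chemokines and IL6 are printed to show the NF-κB match beside the response. The letters searched were GGNNTTTCC on both strands, found in 5.48% of all promoters and 5.92% of those of tested genes. The AP-1 match TGANTCA was found in 6.6% and 3.85%. Of the inflammatory members with a promoter in the table, 5 of 13 that fell and 2 of 4 that did not pass held the NF-κB match, and 4 of 13 and 1 of 4 held the AP-1 match. Capitals mark these matches, none of which overlap, in IL6 (chr7:22727080-22727199, plus strand), CXCL8 (chr4:73740419-73740568, plus strand), CXCL1 (chr4:73869293-73869392, plus strand) and CXCL2 (chr4:74099196-74099295, minus strand).
IL6: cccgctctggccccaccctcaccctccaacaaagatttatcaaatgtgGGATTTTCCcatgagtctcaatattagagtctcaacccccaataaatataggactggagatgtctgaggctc
CXCL8: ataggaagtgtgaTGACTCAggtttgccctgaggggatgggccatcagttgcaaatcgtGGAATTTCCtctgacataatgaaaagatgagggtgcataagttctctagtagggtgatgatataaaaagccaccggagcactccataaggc
CXCL1: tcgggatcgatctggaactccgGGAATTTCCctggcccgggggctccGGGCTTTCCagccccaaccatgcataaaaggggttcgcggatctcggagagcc
CXCL2: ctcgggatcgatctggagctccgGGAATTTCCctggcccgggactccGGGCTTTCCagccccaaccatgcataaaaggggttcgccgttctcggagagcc
IL6 had 0.444, 0.446 and 0.239 CPM with dexamethasone and 6.22, 3.88 and 3.04 CPM in control (log2 fold change -3.55, SE 0.38, adjusted p = 2.31e-07). CXCL1 and CXCL2 each carry a pair of NF-κB matches at nearly the same distances from the start. CXCL1 fell, whereas CXCL2 had 1.33, 1.34 and 1.96 CPM with dexamethasone and 3.49, 1.71 and 1.79 CPM in control, overlapping groups (log2 fold change -0.37, SE 0.34, adjusted p = 0.526). These chemokine genes are near copies, so the counting could divide or drop reads between them.

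Interferon-stimulated genes fell more often than they rose. Of 39 tested, 18 fell, 1 rose and 20 did not pass, with a median of -0.37, and 11 falls were called without the block. IFIT2 and IFIT3 encode related proteins that bind viral RNA or block its translation. IFIT2 had 3.25, 1.78 and 1.48 CPM with dexamethasone and 19.1, 19.4 and 15.8 CPM in control (-3.16 ± 0.20 SE). IFIT3 had 5.62, 5.65 and 4.69 CPM with dexamethasone and 32.8, 30.4 and 23.7 CPM in control (log2 fold change -2.43, SE 0.15, adjusted p = 3.82e-11). OAS1, a sensor of double-stranded RNA, had 8.57, 7.14 and 8.62 CPM with dexamethasone and 28.8, 25.9 and 28.6 CPM in control (log2 fold change -1.76, SE 0.11, adjusted p = 1.02e-10). IRF1, a transcription factor of the interferon response, had 27.9, 24.7 and 21.8 CPM with dexamethasone and 76.6, 73.1 and 49.5 CPM in control (log2 fold change -1.38, SE 0.09, adjusted p = 1.63e-10). GBP3, a guanylate-binding protein, and IFIT1 also fell, by 1.57 and 1.12 on the log2 scale. IFI44L was the exception, with 6.95, 9.67 and 11.8 CPM with dexamethasone and 3.18, 4.66 and 4.39 CPM in control (log2 fold change 1.27, SE 0.19, adjusted p = 3.18e-05). The count of rises was 2 without dexamethasone replicate 1 or control replicate 1.

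The interferon response element was found in members of each class. The letters searched, on both strands, were GAAA and GAAA with any 2 bases between them. They were present in 3.07% of all promoters and 2.29% of those of tested genes. They were in 8 of 15 members that fell, in 8 of 16 that did not pass and in IFI44L. Capitals mark the match in IFIT3 (chr10:89327827-89327996, plus strand), which fell, in IFI6 (chr1:27672193-27672362, minus strand), which did not pass, and in IFI44L (chr1:78620278-78620447, plus strand), which rose.
IFIT3: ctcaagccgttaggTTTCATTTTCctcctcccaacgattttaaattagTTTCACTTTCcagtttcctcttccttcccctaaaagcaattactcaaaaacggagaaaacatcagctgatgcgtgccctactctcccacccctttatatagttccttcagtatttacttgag
IFI6: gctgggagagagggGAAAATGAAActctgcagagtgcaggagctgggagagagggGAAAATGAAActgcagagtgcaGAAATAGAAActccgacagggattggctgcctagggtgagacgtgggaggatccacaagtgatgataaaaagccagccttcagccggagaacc
IFI44L: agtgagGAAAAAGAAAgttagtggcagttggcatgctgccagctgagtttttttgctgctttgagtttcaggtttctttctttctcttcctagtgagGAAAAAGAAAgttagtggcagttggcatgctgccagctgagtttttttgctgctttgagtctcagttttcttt
IFI6, a mitochondrial protein of the interferon response, had 28.2, 22.9 and 23.5 CPM with dexamethasone and 25.6, 29.5 and 24.0 CPM in control (log2 fold change -0.07, SE 0.13, adjusted p = 0.76).

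Pattern receptors and host defence genes showed 5 rises and 4 falls among 22 tested members, with a median of 0.09. TLR2, the receptor for bacterial lipoproteins, had 12.3, 16.4 and 7.85 CPM with dexamethasone and 2.58, 3.42 and 1.497 CPM in control (log2 fold change 2.34, SE 0.26, adjusted p = 4.91e-06). TLR6, the partner of TLR2, had 1.03, 1.78 and 1.53 CPM with dexamethasone and 3.94, 5.43 and 3.24 CPM in control (log2 fold change -1.39, SE 0.25, adjusted p = 0.000236). MUC1, a mucin tethered to the cell surface, had 21.9, 43.3 and 24.6 CPM with dexamethasone and 11.5, 17.7 and 12.9 CPM in control (log2 fold change 1.04, SE 0.10, adjusted p = 5.96e-08). The rises were 3 without the block, without dexamethasone replicate 2 or 3, or without control replicate 3, and the falls were 2 without the block or without control replicate 1.

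Feedback inhibitors and outputs of the ERK pathway mostly fell, while the genes SPRY2 and ERRFI1 rose. ERK, a MAP kinase, carries growth factor signals to the nucleus, and its phosphatases and Sprouty proteins turn it off. Of 10 tested MAP kinase phosphatases, 1 rose and 5 fell, with a median of -0.45. Their share of rises lay near the 10.8% of all genes. DUSP1, the phosphatase of p38 and JNK, had 268, 292 and 224 CPM with dexamethasone and 30.2, 25.8 and 22.5 CPM in control. DUSP5, an ERK phosphatase of the nucleus, had 25.3, 26.8 and 20.0 CPM with dexamethasone and 87.2, 66.1 and 66.9 CPM in control (log2 fold change -1.63, SE 0.17, adjusted p = 7.67e-05). DUSP4, another nuclear phosphatase, had 98.2, 85.7 and 77.2 CPM with dexamethasone and 199, 203 and 151 CPM in control (log2 fold change -1.06, SE 0.08, adjusted p = 1.86e-08). The groups did not overlap for any of these. DUSP8 fell as well (-1.54 ± 0.20 SE), and DUSP6 (-0.31) and DUSP10 (0.15) did not pass.

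Of 17 tested feedback inhibitors and output genes of ERK, 2 rose and 11 fell, with a median of -0.51. Their share of rises lay near the 10.8% of all genes. The falls numbered 6 without the block and 7 without dexamethasone replicate 3. IER3, a stress-response gene at chr6:30743199-30744547, had 6.80, 5.65 and 4.83 CPM with dexamethasone and 76.3, 68.8 and 46.5 CPM in control (log2 fold change -3.41, SE 0.12, adjusted p = 3.6e-13). LRIG1, which marks EGF receptors for destruction, had 91.4, 81.2 and 61.9 CPM with dexamethasone and 189.8, 189 and 152 CPM in control (log2 fold change -1.19, SE 0.17, adjusted p = 0.00186). The Sprouty genes split: SPRY2 had 56.2, 42.7 and 51.6 CPM with dexamethasone and 16.5, 10.6 and 11.5 CPM in control, while SPRY1 had 2.66, 1.49 and 1.44 CPM with dexamethasone and 9.10, 7.45 and 9.27 CPM in control. SPRY4 fell (-1.27 ± 0.22 SE), a call lost without the block. EPHA2, an ephrin receptor, fell (log2 fold change -1.56, SE 0.31, adjusted p = 0.0135), a call lost without dexamethasone replicate 1 or 3 or control replicate 2.

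Of 21 tested immediate-early factors, which cells raise within minutes of stimulation, 1 rose, 8 fell and 12 did not pass, with a median of -0.29. FOS, a partner in AP-1, had 15.8, 5.50 and 15.9 CPM with dexamethasone and 2.27, 0.621 and 2.75 CPM in control (log2 fold change 2.63, SE 0.20, adjusted p = 1.32e-09). FOSL1, another AP-1 partner, went the other way, with 10.8, 6.40 and 7.23 CPM with dexamethasone and 33.8, 27.6 and 26.4 CPM in control (log2 fold change -1.87, SE 0.12, adjusted p = 1.61e-10). JUN, their common partner, fell (log2 fold change -0.85, SE 0.20, adjusted p = 0.0271), but this call was lost without any of dexamethasone replicates 1 and 3 and control replicates 1 and 2, and without the count filter. MYC (0.11) and EGR1 (-0.29) did not pass, and their groups overlapped.

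Proteins that shorten the life of cytokine messengers rose more often than they fell, at 8 rises and 2 falls of 16 tested, with a median of 0.13. Falls were about as frequent as over all genes (11.4%). ZFP36L2, which binds AU-rich elements, had 553, 589 and 460.2 CPM with dexamethasone and 179, 170 and 144 CPM in control (log2 fold change 1.70, SE 0.06, adjusted p = 1.95e-15). Its relative ZFP36, tristetraprolin, had 71.1, 60.5 and 61.9 CPM with dexamethasone and 23.8, 16.1 and 23.8 CPM in control (log2 fold change 1.56, SE 0.12, adjusted p = 7.54e-08). ZC3H12C, an RNA-cutting enzyme of the Regnase family, rose by 0.76 ± 0.10 SE. ZFP36L1 (-0.24) did not pass. The rises were 5 without control replicate 3, and neither fall was called without the block, while 1 fall was called without dexamethasone replicate 3.

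Among transcription factors, whole families split. Of 13 tested Krüppel-like factors, 5 rose and 4 fell, with a median of -0.15. KLF15, a factor of amino acid and lipid metabolism, had 53.5, 42.0 and 64.9 CPM with dexamethasone and 2.88, 2.17 and 3.43 CPM in control (log2 fold change 4.23, SE 0.13, adjusted p = 4.48e-16). KLF9, a repressor of growth, had 179.5, 144 and 215 CPM with dexamethasone and 78.1, 46.4 and 98.4 CPM in control (1.28 ± 0.10 SE). KLF13, KLF7 and KLF6 rose by less than 1 on the log2 scale, and KLF4, KLF10, KLF3 and KLF16 fell by 0.36 to 0.51.

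Of 19 tested forkhead factors, 7 rose and 4 fell, with a median of 0.02. FOXO1, which turns on genes of fasting when insulin is low, had 185, 175 and 196 CPM with dexamethasone and 23.8, 21.1 and 29.4 CPM in control (log2 fold change 2.88, SE 0.08, adjusted p = 4.48e-16). FOXO3 had 351, 349.9 and 342 CPM with dexamethasone and 100.5, 92.0 and 121 CPM in control (log2 fold change 1.73, SE 0.09, adjusted p = 4.04e-08), and FOXO4 (0.02) did not pass. FOXL1 and FOXC2, forkheads of mesenchymal development, rose by 2.35 ± 0.19 and 2.01 ± 0.21 SE. FOXS1 had 0.148, 0.297 and 0.287 CPM with dexamethasone and 3.64, 2.79 and 2.46 CPM in control (log2 fold change -3.35, SE 0.33, adjusted p = 8.86e-08). FOXA1, a pioneer factor of airway and gut epithelium, had 12.6, 17.1 and 15.1 CPM with dexamethasone and 30.5, 42.8 and 44.5 CPM in control (log2 fold change -1.42, SE 0.12, adjusted p = 2.11e-08).

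Of 21 tested clock genes, 7 rose and 4 fell, with a median of 0. PER1, a repressor of the clock, had 307, 305 and 268 CPM with dexamethasone and 44.6, 34.6 and 42.3 CPM in control. NPAS2, which can stand in for CLOCK as the partner of BMAL1, had 43.9, 30.1 and 45.3 CPM with dexamethasone and 9.40, 4.97 and 5.75 CPM in control (log2 fold change 2.68, SE 0.13, adjusted p = 7.07e-13). CIART, a repressor of CLOCK and BMAL1, had 10.5, 9.37 and 10 CPM with dexamethasone and 4.85, 3.10 and 4.06 CPM in control (log2 fold change 1.30, SE 0.18, adjusted p = 7.83e-06), and NFIL3, a repressor of D-box genes, rose by 0.88 ± 0.09 SE. BHLHE40, a repressor of E-box genes, had 28.2, 21.9 and 35.3 CPM with dexamethasone and 87.3, 49.0 and 87.2 CPM in control (log2 fold change -1.36, SE 0.08, adjusted p = 1.4e-11). BMAL1 (0.13), PER2 (0.28), PER3 (-0.15), NR1D1 (-0.40) and NR1D2 (0.00) did not pass.

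Of 24 tested nuclear receptors other than NR3C1, 4 rose and 7 fell, with a median of -0.05. PPARG, the receptor of fat cell formation, had 5.32, 4.31 and 3.40 CPM with dexamethasone and 1.67, 1.09 and 1.93 CPM in control (log2 fold change 1.27, SE 0.26, adjusted p = 0.000872). THRA, a thyroid hormone receptor, and RXRA, the shared partner of many receptors, rose by 0.85 and 0.57. The falls were 2 without the block and 4 without dexamethasone replicate 3 or control replicate 3.

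The metallothioneins, small proteins that hold zinc and copper, rose together. Of 7 tested genes of metallothioneins, their activator MTF1 and zinc exporters, 6 rose and 1 fell, with a median of 1.93. MT1E had 38.6, 80.2 and 26.9 CPM with dexamethasone and 4.09, 6.83 and 1.98 CPM in control (log2 fold change 3.57, SE 0.25, adjusted p = 3.61e-06). MT1M had 75 reads over the dexamethasone libraries and 3 over the control libraries, a ratio of 23.7 (95% exact interval 7.80 to 117, counting error only). MT2A had 149.8, 302 and 118 CPM with dexamethasone and 45.6, 61.8 and 36.6 CPM in control (log2 fold change 1.93, SE 0.26, adjusted p = 0.00231). SLC30A1, which exports zinc and which MTF1 also controls, fell, with 6.505, 8.33 and 8.19 CPM with dexamethasone and 21.5, 25.9 and 23.5 CPM in control (log2 fold change -1.60, SE 0.11, adjusted p = 4e-10). The call of MT2A was lost without replicate 1 of every group. The call of MT1F was lost without control replicate 3, and that of MTF1 (0.21) without the block and without any single library. Metallothionein genes are close copies, and the counting could divide their reads.

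Promoters of MT2A and MT1X are printed because they carry the metal response element several times. The letters searched were TGCNCNC on both strands, so short a match that 48.4% of all promoters and 56.4% of those of tested genes hold it. MT2A had 7 matches in 250 bases, of which 6 lie in the stretch printed, and MT1X had 4. Capitals mark these matches in MT2A (chr16:56608404-56608583, plus strand) and MT1X (chr16:56682310-56682469, plus strand).
MT2A: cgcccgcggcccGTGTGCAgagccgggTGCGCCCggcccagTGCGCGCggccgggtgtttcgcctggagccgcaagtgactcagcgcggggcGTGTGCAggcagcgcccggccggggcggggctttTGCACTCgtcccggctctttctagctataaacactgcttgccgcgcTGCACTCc
MT1X: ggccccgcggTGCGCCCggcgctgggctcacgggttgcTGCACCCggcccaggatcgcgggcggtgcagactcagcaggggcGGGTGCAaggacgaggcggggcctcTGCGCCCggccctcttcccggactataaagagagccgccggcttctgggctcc
MT1X had 50.6, 56.1 and 76.9 CPM with dexamethasone and 12.6, 11.5 and 14.4 CPM in control, higher in all 3 dexamethasone libraries.

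Of 18 tested ion transport genes, 4 rose and 5 fell, with a median of -0.05, and 3 falls were called without the block. SGK1, the kinase that keeps the sodium channel at the surface, had 155, 194 and 159.6 CPM with dexamethasone and 22.9, 15.1 and 21.5 CPM in control (log2 fold change 3.02, SE 0.19, adjusted p = 2.12e-05). SCNN1A, the alpha subunit of that channel, had 131, 130.3 and 175 CPM with dexamethasone and 56.9, 45.8 and 76.6 CPM in control. SCNN1G, the gamma subunit, was under the filter with 28 reads over the dexamethasone libraries and 1 over the control libraries, a ratio of 26.5 (95% exact interval 4.39 to 1090, counting error only). NEDD4L, the ligase that removes the channel from the surface, had 68.0, 67.1 and 71.8 CPM with dexamethasone and 134, 156 and 134 CPM in control (log2 fold change -1.02, SE 0.07, adjusted p = 1.37e-10). AQP5, a water channel of airway glands, had 4.29, 4.61 and 3.54 CPM with dexamethasone and 8.34, 14.4 and 11.2 CPM in control (log2 fold change -1.48, SE 0.19, adjusted p = 4.1e-06).

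Of 32 tested genes of fuel switching and insulin signalling, 9 rose and 4 fell, with a median of 0.01. Falls were about as frequent as over all genes (11.4%). PDK4, the kinase that shuts off pyruvate dehydrogenase, had 15.8, 31.2 and 25.2 CPM with dexamethasone and 0.303, 1.397 and 0.773 CPM in control. HK2, the hexokinase of muscle and tumour cells, had 217, 174 and 235 CPM with dexamethasone and 44.7, 40.4 and 59.2 CPM in control (log2 fold change 2.12, SE 0.12, adjusted p = 2.73e-07). PIK3R1, the regulatory subunit of PI3-kinase, had 139.7, 156 and 174 CPM with dexamethasone and 29.0, 31.7 and 35.1 CPM in control (log2 fold change 2.31, SE 0.06, adjusted p = 9.55e-17). GLUL, which makes glutamine, stood at 505 ± 26.4 CPM with dexamethasone and 112 ± 13.0 CPM in control (SD, n = 3 each). G0S2, an inhibitor of fat breakdown, had 1.33, 1.93 and 0.479 CPM with dexamethasone and 4.25, 4.04 and 3.43 CPM in control (log2 fold change -1.94, SE 0.34, adjusted p = 0.000193). PFKFB3, an activator of glycolysis, also fell (-0.75 ± 0.08 SE).

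Of 28 tested genes of cholesterol and fatty acid synthesis, 15 fell and 1 rose, with a median of -0.20, and 4 falls and no rise were called without the block. The rise was also lost without dexamethasone replicate 3 or control replicate 1. SREBF1, a master factor of lipid synthesis, had 140.3, 94.2 and 138 CPM with dexamethasone and 204, 142 and 227 CPM in control (log2 fold change -0.62, SE 0.06, adjusted p = 5.21e-08). HMGCS1, an early enzyme of cholesterol synthesis, had 347, 241 and 402 CPM with dexamethasone and 547, 335 and 641 CPM in control, and although each replicate number fell, the groups overlapped. Both calls were lost without the block.

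Of 21 tested targets of NRF2, the sensor of oxidants, 4 rose and 7 fell, with a median of -0.11. GCLC, the catalytic subunit of the first enzyme of glutathione synthesis, had 103, 115 and 101.9 CPM with dexamethasone and 30.0, 29.8 and 26.8 CPM in control (log2 fold change 1.89, SE 0.07, adjusted p = 9.62e-15). GSR, which regenerates glutathione, had 250, 245 and 263 CPM with dexamethasone and 112, 99.3 and 125 CPM in control (log2 fold change 1.17, SE 0.07, adjusted p = 1.5e-09). HMOX1, which degrades haem, and TXNRD1, which reduces thioredoxin, fell (-0.76 ± 0.08 and -0.71 ± 0.07 SE). Of 25 tested ATF4 and unfolded-protein genes, 5 rose and 4 fell, with a median of -0.05, against 3 rises and 2 falls without the block and 3 rises without control replicate 3. CHAC1, which degrades glutathione, had 5.32, 4.91 and 4.31 CPM with dexamethasone and 1.36, 2.17 and 1.35 CPM in control (log2 fold change 1.60, SE 0.24, adjusted p = 2.88e-05).

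Of 21 tested genes of hypoxia and glycolysis, 2 rose, 3 fell and 16 did not pass, with a median of 0.02, and their called share of 23.8% lay near the 22.2% of all genes. CA9, a carbonic anhydrase of the cell surface, had 45.7, 76.0 and 63.8 CPM with dexamethasone and 5.91, 8.23 and 13.1 CPM in control (log2 fold change 2.67, SE 0.33, adjusted p = 0.00109). NDRG1, a stress-response gene, had 263, 236 and 277 CPM with dexamethasone and 71.1, 69.1 and 97.7 CPM in control (log2 fold change 1.72, SE 0.16, adjusted p = 0.000224). VEGFA, the ligand of KDR, had 19.4, 23.6 and 21.4 CPM with dexamethasone and 73.7, 103 and 74.2 CPM in control (log2 fold change -1.98, SE 0.43, adjusted p = 0.0179), a call lost without dexamethasone replicate 1 or 3. Only 1 fall was called without the block or without dexamethasone replicate 3.

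The cell cycle lists hold regulators of the cycle apart from genes of replication and division. Of 14 tested CDK inhibitors, D cyclins and GADD45 genes, 4 rose and 5 fell, with a median of -0.05. CDKN1C, the CDK inhibitor p57, had 249, 412 and 251 CPM with dexamethasone and 12.4, 23.8 and 12.9 CPM in control. CCND1, cyclin D1, had 49.4, 41.5 and 35.5 CPM with dexamethasone and 148, 115 and 114 CPM in control (log2 fold change -1.59, SE 0.08, adjusted p = 5.74e-11). CDK6, a partner of the D cyclins, had 42.7, 62.0 and 45.2 CPM with dexamethasone and 75.05, 93.3 and 82.6 CPM in control (log2 fold change -0.76, SE 0.10, adjusted p = 5.35e-05). GADD45B, a stress sensor, rose (1.11 ± 0.06 SE), CDKN1B fell (-0.43 ± 0.08 SE) and CDKN1A, the inhibitor p21, did not pass (0.18). Of 32 tested genes of DNA replication and mitosis, 6 rose, 1 fell and 25 did not pass, with a median of 0.04, so that 21.9% were called against 22.2% of all genes. MKI67 had 1090, 951 and 1095 CPM with dexamethasone and 1037, 912 and 1197 CPM in control, with overlapping groups. CCNE1, cyclin E1, and UHRF1, which copies DNA methylation, rose by 0.79 ± 0.13 and 0.77 ± 0.05 SE, and 3 of the 6 rises were called without the block. The count of falls was 2 without dexamethasone replicate 1.

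Of 25 tested polo-like kinases, p53 targets and BCL2 family members, 7 rose and 9 fell, with a median of -0.13, against 4 and 5 without the block. CFLAR, which blocks caspase-8, had 100.5, 105 and 100.1 CPM with dexamethasone and 39.0, 37.1 and 40.6 CPM in control (log2 fold change 1.38, SE 0.07, adjusted p = 4.39e-12). BCL6, a transcriptional repressor, had 37.5, 25.1 and 40.0 CPM with dexamethasone and 11.1, 8.85 and 14.8 CPM in control (log2 fold change 1.56, SE 0.14, adjusted p = 3.02e-07). MCL1, a survival protein, rose by 0.70 ± 0.05 SE. BCL2L11, the death protein BIM that glucocorticoids raise in lymphocytes, had 66.5, 63.5 and 67.7 CPM with dexamethasone and 129, 113 and 136 CPM in control (log2 fold change -0.95, SE 0.10, adjusted p = 2.77e-05). BCL2, the founding survival protein, also fell (-0.98 ± 0.14 SE), and BMF, another death protein, rose (0.95 ± 0.12 SE), a call lost without the block.

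The growth factor ligands HBEGF, EREG, VEGFA and VEGFC fell and AREG rose, while the receptors KDR and EGFR rose. Of 15 tested EGF and VEGF ligands and receptors, 3 rose and 5 fell, with a median of -0.31. The EGF receptor ligands split: AREG, amphiregulin, had 61.6, 44.6 and 62.0 CPM with dexamethasone and 14.9, 10.2 and 12.6 CPM in control (log2 fold change 2.17, SE 0.10, adjusted p = 7.07e-13). EREG, epiregulin, had 10.3, 15.2 and 9.96 CPM with dexamethasone and 30.5, 38.3 and 28.7 CPM in control (log2 fold change -1.48, SE 0.12, adjusted p = 2.22e-09), and HBEGF, the heparin-binding member, had 0.591, 0.892 and 1.72 CPM with dexamethasone and 6.37, 8.38 and 5.51 CPM in control (log2 fold change -2.25, SE 0.40, adjusted p = 0.00191). The receptor EGFR rose (0.64 ± 0.06 SE). Of 21 tested FGF, PDGF and IGF genes, 4 rose and 7 fell, with a median of -0.13, and 4 falls were called without the block or without dexamethasone replicate 1, dexamethasone replicate 3 or control replicate 1. FGF5 had 1.18, 0.446 and 0.479 CPM with dexamethasone and 5.76, 1.24 and 4.73 CPM in control (log2 fold change -2.76, SE 0.30, adjusted p = 3.39e-07), a call lost without the block. FGFR3, a receptor, rose (1.16 ± 0.15 SE), a call lost without the block.

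In the TGF-β and BMP pathway, 6 of 33 tested members rose and 13 fell, with a median of -0.16. The falls took in ligands, their antagonists and intracellular members. Of the ligands, BMP4 had 31.3, 47.8 and 23.9 CPM with dexamethasone and 158, 225 and 133 CPM in control (log2 fold change -2.36, SE 0.07, adjusted p = 4.35e-16). TGFB3 had 4.88, 3.87 and 3.495 CPM with dexamethasone and 19.7, 26.5 and 19.3 CPM in control (log2 fold change -2.42, SE 0.17, adjusted p = 2.32e-10), and TGFB2 had 20.2, 21.4 and 19.5 CPM with dexamethasone and 68.2, 68.6 and 62.0 CPM in control (log2 fold change -1.69, SE 0.08, adjusted p = 1.51e-12), while TGFB1 did not pass (-0.16). Of the antagonists, FST, which traps activin, had 5.47, 5.36 and 4.83 CPM with dexamethasone and 24.7, 18.2 and 21.4 CPM in control (log2 fold change -2.07, SE 0.12, adjusted p = 2.79e-11). GREM1 and NOG, which trap BMPs, also fell (-1.95 and -2.06), but the call of GREM1 was lost without any of the 3 dexamethasone libraries or control replicate 1, and that of NOG without dexamethasone replicate 3. Of the intracellular members, SMAD3, which carries the TGF-β signal, had 77.2, 66.5 and 67.1 CPM with dexamethasone and 205, 167 and 205 CPM in control (log2 fold change -1.46, SE 0.15, adjusted p = 0.000268), and ID1, a BMP target, fell (-0.78 ± 0.08 SE). The members that rose included the co-receptor TGFBR3, with 119, 96.8 and 136 CPM with dexamethasone and 39.9, 48.3 and 37.4 CPM in control (log2 fold change 1.54, SE 0.17, adjusted p = 0.00023), the receptor TGFBR2, the activin-binding FSTL3, LTBP1 and SMAD4.

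Of 33 tested Wnt and Notch genes, 5 rose and 14 fell, with a median of -0.12, and 5 falls were called without the block. DKK1, a secreted inhibitor of Wnt, had 109.6, 122 and 92.8 CPM with dexamethasone and 24.7, 33.1 and 23.0 CPM in control (log2 fold change 2.00, SE 0.12, adjusted p = 1.61e-07). FZD4, a Wnt receptor, had 20.7, 32.1 and 32.0 CPM with dexamethasone and 7.28, 7.92 and 11.8 CPM in control (log2 fold change 1.59, SE 0.13, adjusted p = 5.67e-09). WNT7B, a ligand, had 2.07, 2.53 and 2.30 CPM with dexamethasone and 9.70, 13.2 and 8.94 CPM in control (log2 fold change -2.10, SE 0.30, adjusted p = 0.000135). HES1, the repressor that Notch turns on, had 13.3, 7.74 and 8.81 CPM with dexamethasone and 32.8, 27.8 and 24.5 CPM in control (log2 fold change -1.5, SE 0.14, adjusted p = 2.24e-07), whereas the receptor NOTCH2 rose (1.01 ± 0.12 SE). AXIN2, a Wnt target, did not pass (-0.12).

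Of 36 tested collagens and matrix proteins, 8 rose and 4 fell, with a median of 0.03, against 4 and 1 without the block and 15 and 12 with only the 6 compared libraries. The share that fell lay near the 11.4% of all genes. The rises were 5 without dexamethasone replicate 1 or control replicate 3, and 3 without replicate 1 of every group. The falls were 2 without control replicate 2 or replicate 1 of every group, and 9 with scaling by library total alone. LAMB1, a laminin chain of basement membrane, had 696, 739.6 and 705 CPM with dexamethasone and 437, 416 and 417 CPM in control (log2 fold change 0.76, SE 0.15, adjusted p = 0.00968). COL1A1 (-0.15) and FN1 (0.40), the main proteins of scar matrix, did not pass. Of 38 tested epithelial junction and keratin genes, 13 rose and 6 fell, with a median of 0.04, and the rises were 4 without the block and 7 without dexamethasone replicate 2. KRT6A, a keratin of stressed epithelium, had 94.5, 204 and 64.9 CPM with dexamethasone and 20.9, 62.2 and 17.3 CPM in control, high in replicate 2 of both groups, and rose by 1.90 ± 0.11 SE, a call lost without the block. ITGB4, the hemidesmosome integrin, had 1104, 1234 and 1039 CPM with dexamethasone and 610.4, 594 and 592 CPM in control (log2 fold change 0.91, SE 0.08, adjusted p = 6.12e-06). ELF3, an epithelial transcription factor, had 9.61, 8.48 and 9.96 CPM with dexamethasone and 37.6, 35.4 and 41.5 CPM in control (log2 fold change -2.04, SE 0.12, adjusted p = 2.33e-11).

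Of 26 tested actin and contractile genes, 3 rose and 5 fell, with a median of 0.03, and the falls were 1 without the block and 1 to 3 without any single library other than dexamethasone replicate 1. The share that rose lay near the 10.8% of all genes. VCL, the focal adhesion protein vinculin, had 1168, 1115 and 1067 CPM with dexamethasone and 436, 402 and 391 CPM in control (log2 fold change 1.45, SE 0.05, adjusted p = 1.42e-14). The 13 protein-coding genes of mitochondrial DNA gave 12 rises of 0.19 to 0.33 on the log2 scale, with a median of 0.26. The count depended on the setting: 1 was made without the block, 3 with scaling by library total alone, 5 without dexamethasone replicate 1 or control replicate 2, 4 without control replicate 1, 3 without dexamethasone replicate 3 and 0 without replicate 1 of every group. Their share of counted reads was 2.13 to 2.76% with dexamethasone and 1.85 to 2.40% in control, ranges that overlap.

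Of 13 tested genes of prostaglandin synthesis and reception, 6 rose and 1 fell, with a median of 0.22. PTGFR, the receptor of prostaglandin F2α, had 42.0, 56.8 and 47.2 CPM with dexamethasone and 3.03, 2.79 and 3.57 CPM in control (log2 fold change 3.87, SE 0.13, adjusted p = 2.07e-15). PTGER2, a receptor of prostaglandin E2 that raises cyclic AMP, had 39.0, 46.0 and 35.5 CPM with dexamethasone and 5.31, 4.35 and 3.82 CPM in control (log2 fold change 3.17, SE 0.12, adjusted p = 1.34e-14), and PTGER4, its relative, rose by 0.86 ± 0.12 SE. ALOX5AP, the partner of 5-lipoxygenase, had 35 reads over the dexamethasone libraries and 3 over the control libraries, a ratio of 11.1 (95% exact interval 3.49 to 56.2), and its call was lost without control replicate 3. TBXAS1, thromboxane synthase, rose as well, at a low level, with 3.84, 4.17 and 4.40 CPM with dexamethasone and 0.758, 0.931 and 1.01 CPM in control. PTGS1 (0.07) and PTGES (-0.21), which make prostaglandins, did not pass. The fall was that of ANXA1, listed here too and lost without the block.

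Of 19 tested genes of cyclic AMP signalling, phosphodiesterases and RGS proteins, 1 rose and 7 fell, with a median of -0.14, and the falls were 3 without the block and 4 without control replicate 3. The rises were 3 without dexamethasone replicate 3 and 2 without control replicate 2. PDE4B, an enzyme that degrades cyclic AMP and a drug target in airway disease, had 0.296, 0.149 and 0.622 CPM with dexamethasone and 5.76, 2.02 and 5.75 CPM in control (log2 fold change -3.41, SE 0.35, adjusted p = 1.63e-07). PDE4D, its relative, fell less (-0.53 ± 0.10 SE), with overlapping groups and a call lost without the block. RGS2, an inhibitor of Gq signals that glucocorticoids raise in airway cells, was under the filter with 43 reads over the dexamethasone libraries and 16 over the control libraries.

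**Figure D4:**
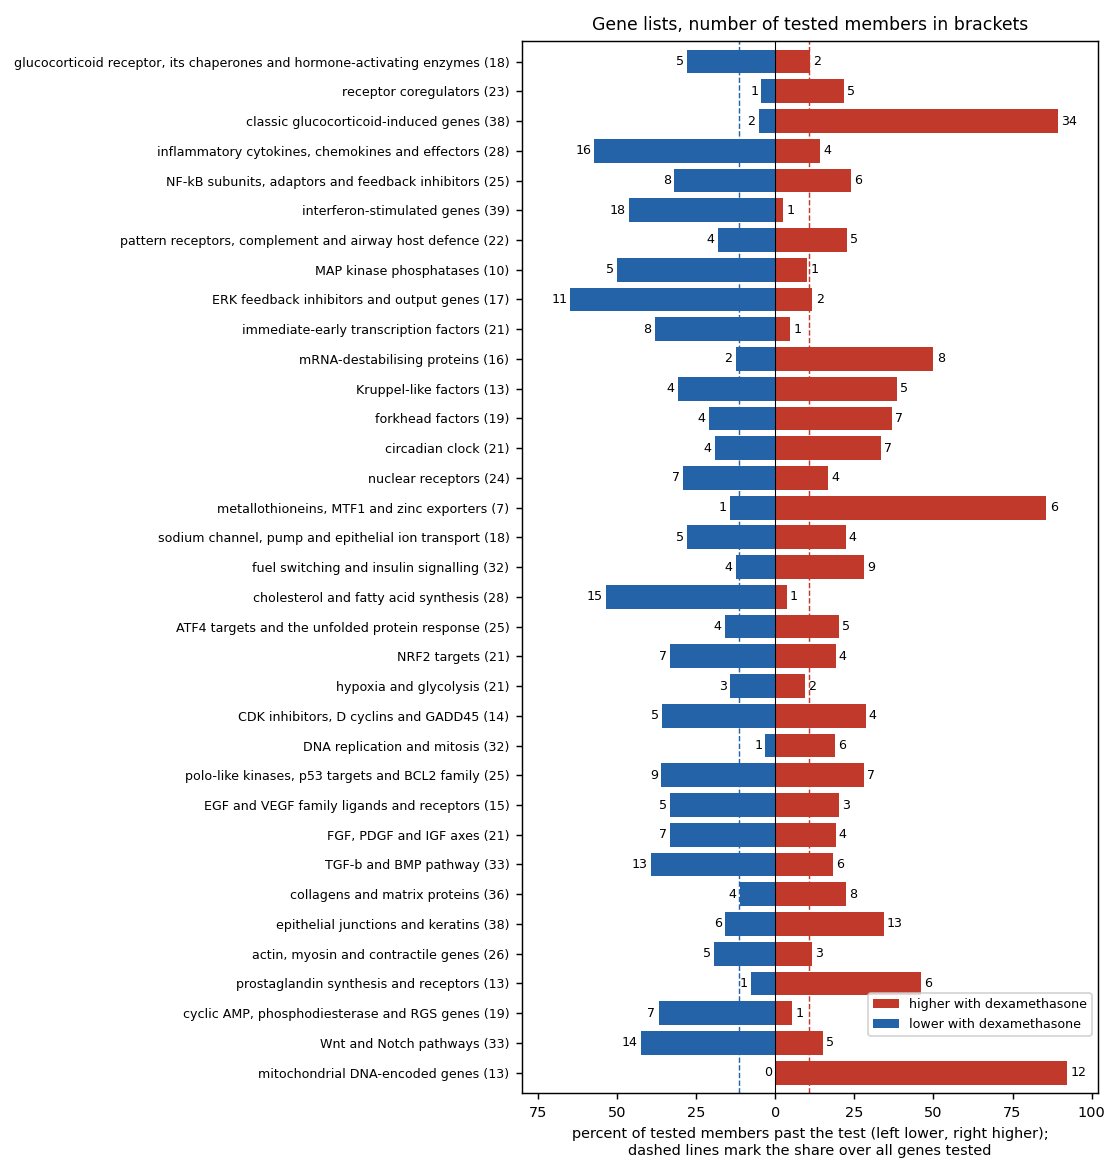
For each gene list (rows, number of tested members in brackets), bars give the percent of tested members that rose (red, to the right) or fell (blue, to the left) and numbers give the members. Dashed lines mark 10.8% rises and 11.4% falls over all genes tested. The longest red bars are those of the glucocorticoid-induced, metallothionein and mitochondrial lists, and the longest blue bars those of ERK feedback and cytokines.

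The same steroid step after TGF-β1 gave a second measure of the effect, from libraries that share none with the comparison above but the replicate numbers and the fit. Dexamethasone after TGF-β1, against TGF-β1 alone, raised 1275 genes (9.47%) and lowered 1078 (8.00%). Of the 1461 genes raised without TGF-β1, 830 were also raised with it, which is 56.8% of the first list and 65.1% of the second. Of the 1535 lowered, 708 were shared, which is 46.1% and 65.7%. Of the 401 genes raised at least 2-fold, 385 had the same sign with TGF-β1 and 324 were also called, and of the 289 lowered at least 2-fold, 271 had the same sign and 202 were also called. Across all 13469 genes the 2 effects had a Pearson r of 0.743, a description only, since genes are not independent replicates. A test of the difference itself called 644 genes (4.78%), 119 without the block.

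Of the 401 genes, 110 passed the test of the difference, 90 of them with a smaller effect with TGF-β1, and of the 289, 73 passed, 71 of them smaller. Those genes were chosen by their effect without TGF-β1, so these counts are a description.

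Among named genes, some effects shrank with TGF-β1 and a few grew or turned. NR3C1 fell by 0.72 with TGF-β1, against a fall by 1.31 without it. BMP4 had 14.3, 26.1 and 14.2 CPM with both agents and 19.6, 36.0 and 18.5 CPM with TGF-β1 alone, so that it fell by 0.43, and its difference from the effect without TGF-β1 was 1.93 ± 0.12 SE (adjusted p = 2.52e-09). MAOA rose less with TGF-β1 (0.71), with a difference of -2.85 ± 0.21 SE (adjusted p = 4.56e-08). SGK1 likewise rose less (0.79, difference -2.23 ± 0.26 SE, adjusted p = 0.00307). CXCL1 fell without TGF-β1, and with it had 1.95, 1.04 and 0.791 CPM with both agents and 0.35, 1.39 and 0.897 CPM with TGF-β1 alone, a change of 0.28 that did not pass. Its difference was 2.87 ± 0.54 SE (adjusted p = 0.00169). CDK6 fell without TGF-β1 and rose with it (0.46), and this difference passed (1.22 ± 0.14 SE, adjusted p = 0.000104). Genes with near values in both were FKBP5 (3.91 with TGF-β1), TGFB2 (-1.69), PIK3R1 (2.39) and MCL1 (0.71).

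**Figure D5:**
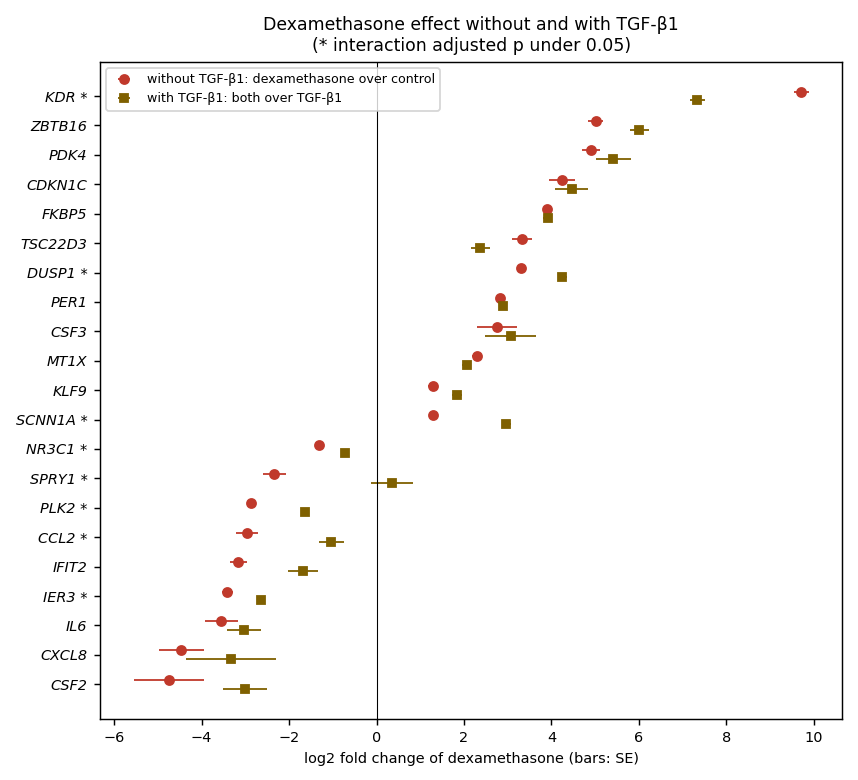
Log2 fold change of dexamethasone (horizontal axis, bars are SE) without TGF-β1 (red circles, dexamethasone over control) and with it (brown squares, both over TGF-β1) for 21 genes. Stars mark the 8 genes whose difference between the 2 effects passed at an adjusted p under 0.05, and SPRY1 has its 2 points on opposite sides of 0.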

How the data were processed

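Counts per gene were deposited by the authors as 1 table of whole numbers, made with featureCounts on hg38 per the submitters' processing notes; for the aligner and versions, no value is given in the sources used here. The table has 28395 identifiers and 18 count columns, of which the 6 without a label were not used. RefSeq matched 27745 identifiers, which hold 99.943% of counts, and 650 were not matched.

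From these counts, genes were kept by filterByExpr (minimum count 10), leaving 13469. All 12 libraries were fitted with edgeR 4.0.16 (R 4.3.3, limma 3.58.1): TMM scaling, robust quasi-likelihood, group plus replicate number as a block, Benjamini-Hochberg adjusted p over all genes tested, threshold 0.05. Every adjusted p printed comes from this test. Every SE is the size of the log2 fold change divided by the square root of the test's F. It is not fitted separately and can be too small where 1 group has few reads. Residuals of same-numbered libraries of different groups correlated above 0.1 in 18 of 18 pairs (0.25 to 0.541), against -0.422 to 0.042 for different numbers, so the number was treated as pairing the libraries. The biological coefficient of variation was 0.0577 with the block and 0.1217 without. P-values measure the spread between these libraries of 1 cell line. Libraries of 1 group differed beyond counting noise (chi-square over its degrees of freedom, 5.45 to 13.38). Exact 95% intervals cover counting error only.

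The members and gene lists were chosen with earlier results of these data known. Text names a panel of 21 genes, and the 12 largest rises and 12 largest falls. These were taken among called genes whose mean log2 CPM reached 1 and whose dexamethasone and control libraries did not overlap in CPM. In each list it names up to 6 called genes a direction in order of adjusted p. Others of a list are named where their role asks for it or given as not past the test. MAP3K6, CMKLR2, EEF2K, EXOC6, ADAM8 and EVA1A were named for a promoter match. Alternatives were no block, only the 6 compared libraries, RLE or total scaling, no filter or a stricter filter, DESeq2 1.42.0, and each library or replicate number left out. Promoters came from the RefSeq table of GRCh38.p14. Some genes that these rules name are not reported here.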

Additional observations from a re-analysis of the deposited data

Results flagged for a closer look

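The effect of dexamethasone differed between cells with and without TGF-β1, by a test of the difference itself, for 8 of the 21 panel genes. Over all 13469 tested genes the share was 4.78%, and the panel was chosen with earlier results of these data known. Differences are the log2 fold change with TGF-β1 minus that without it. NR3C1 differed by 0.59 and PLK2 by 1.23, both falling less with TGF-β1. IER3 differed by 0.77 and CCL2 by 1.93, also falling less. SPRY1 differed by 2.69, with a fall without TGF-β1 and no call with it. DUSP1 differed by 0.94 and SCNN1A by 1.69, both rising more with TGF-β1. KDR differed by -2.38, rising less.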

How the results depend on the processing

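Without the replicate block the test called 746 rises, 660 falls and 119 genes whose effect differed with TGF-β1, against 1461, 1535 and 644 with it. Of 408 named genes past the test, 259 kept the call without the block and 149 lost it, 370 kept it in DESeq2, 384 with scaling by library totals alone, 401 with RLE scaling, without the filter or with only the 6 compared libraries (where the other 7 were not tested), and 407 with the stricter filter. None of these 408 genes changed sign in a setting that tested it. With libraries or replicate numbers left out, the rises ranged from 859 to 1530, the falls from 924 to 1657, the 2-fold rises from 366 to 394, the 2-fold falls from 273 to 318 and the genes with a difference from 219 to 961. Of these, the fewest calls came without replicate 1 (859 and 924) and without replicate 3 (989 rises and 964 falls). Falls exceeded rises by more when libraries were scaled by their totals (1127 rises, 2035 falls). Of 84 counts of rises or falls over gene lists, 34 moved by over 1.5 times without the block, 26 without replicate 1 and 12 with only the 6 compared libraries. Genes under 1 CPM had a median standard error of 0.529, which limits what could be called there.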

Other observations

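Of 548 long non-coding RNAs tested, 12.4% were called (28 rises and 40 falls), and of 12469 protein-coding genes 23.2% were called, shares given as a description with no test of the difference. Their median control levels were 3.25 and 32.9 CPM. Over all genes, 15.5% were called at a mean of 1 to 10 CPM and 23.4% at 10 to 100 CPM. Whether the gap follows level was not tested. The transcript LEISA1 had 16.0, 11.9 and 15.3 CPM with dexamethasone and 6.37, 2.48 and 5.51 CPM in control (log2 fold change 1.59). PROSER2-AS1 and KCNQ1OT1 rose by 1.63 and 1.26 on the log2 scale. MIR100HG and CARINH fell by 1.5 and 1.42. These were named after their values were seen, and antisense and host transcripts could share reads with neighbours in counts without strand.

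Members under the filter were not tested. For some the counting interval of the ratio of dexamethasone to control excluded 1, and those below are of this kind. For others, NR3C2, HSD11B2, LCN2 and ADRB1 among them, it did not. The intervals pool the libraries of a group and cover counting error only, and libraries of 1 group differed beyond that error. ALOX15B, a lipoxygenase of airway epithelium, had 50 reads over the dexamethasone libraries and 1 over the control libraries, a ratio of 47.4 (95% exact interval 8.12 to 1910). EGLN3, an oxygen sensor, had 9 reads with dexamethasone and 57 in control, a ratio of 0.15 (0.0651 to 0.304). MUC5AC, the gel-forming mucin of airways, had 18 reads with dexamethasone and 42 in control, a ratio of 0.406 (0.220 to 0.721). TLR5, the flagellin receptor, had 13 reads with dexamethasone and 37 in control, a ratio of 0.333 (0.162 to 0.641).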
